A study of Mus musculus with 22 samples.

Results

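C1q macrophages of the mouse olfactory epithelium (OE) are described here, that is, the cells in droplet single-cell RNA-seq (scRNA-seq) of whole OE that carried transcripts of the complement genes C1qa, C1qb and C1qc. A cell was kept when it had more than 500 genes, more than 1500 UMIs (unique molecular identifiers, each counting 1 captured RNA molecule) and less than 20% mitochondrial UMIs, and a kept cell was a member when it had at least 5 UMIs of the 3 C1q genes together and less than 5% of its UMIs in the neutrophil genes S100a8 and S100a9. These rules left 25185 of 32293 barcodes as kept cells and 660 of those as C1q macrophages. The 4 WT mice held 34, 32, 78 and 99 of them and the 4 Upf3b-null mice 211, 30, 12 and 164. The cells were thus selected on the measured UMIs of C1qa, C1qb, C1qc, S100a8 and S100a9, and the levels of these genes are given as a description only.

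The study asked what the loss of UPF3B, a factor of nonsense-mediated RNA decay (NMD), does in the OE, and profiled dissociated OE of adult male C57BL/6 mice (C57BL/6J in the study's methods) after removal of dead cells, with 1 library of the Chromium v2 chemistry for each mouse. The WT group carried an intact Upf3b gene on the single X chromosome (Upf3b+/y), and the Upf3b-null group carried the inactivated gene (Upf3b-/y) in every cell of the body and not only in neurons, so macrophages, neurons and blood cells of those mice share the genotype. No mouse received a treatment. Each of the 4 mice in a group is a separate animal. The summed UMIs of the macrophages were 101568, 89077, 296429 and 324176 in the WT mice and 706718, 94281, 38918 and 496868 in the Upf3b-null mice, and the median macrophage had between 2552.5 and 3194.5 UMIs and between 1005 and 1444 genes in each mouse. Upf3b-null replicate 3 is the shallowest, with 12 cells.

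Macrophages are the phagocytes that live in nearly every tissue, where they engulf dying cells and debris, degrade them in lysosomes and present peptides on MHC class II molecules. C1q, the recognition part of the classical complement pathway, is built from A, B and C chains encoded by C1qa, C1qb and C1qc, and tissue macrophages and microglia are its main source. In the OE, where sensory neurons die and are replaced throughout life, macrophages clear the remains. NMD degrades RNAs with premature stop codons and some normal RNAs, and UPF3B links it to the exon junction complex.

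The 3 C1q genes lie side by side on the minus strand of chromosome 4 (GRCm38, GENCODE vM21), with C1qb (ENSMUSG00000036905) from 136880129 to 136886187, C1qc (ENSMUSG00000036896) from 136889804 to 136893065 and C1qa (ENSMUSG00000036887) from 136895917 to 136898803. Spi1, which encodes the myeloid transcription factor PU.1 and was not used by the rule, had 295, 415, 216 and 197 CPM in the WT mice and 313, 297, 385 and 227 CPM in the Upf3b-null mice. Its groups overlap.

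The libraries fall into 2 sets that the labels do not name. Over 1623 genes of the neurons with at least 5 UMIs of the olfactory marker gene Omp, Spearman's rho between libraries was 0.812 to 0.968 within WT replicates 1 and 2 and Upf3b-null replicates 1, 2 and 3 (set A), 0.873 to 0.933 within WT replicates 3 and 4 and Upf3b-null replicate 4 (set B), and 0.455 to 0.652 between the sets. In the macrophage sums the same ranges, over 1243 genes, were 0.704 to 0.853, 0.89 to 0.906 and 0.575 to 0.694. What sets them apart is not in the labels and was not tested. Each set holds both genotypes, and the tests and list medians of the genotype comparison are also given with the set as a term of the fit or in the 5 libraries of set A alone. Macrophages of set B had a median of 17 C1q UMIs and 9.32% mitochondrial UMIs, and those of set A 42 and 6.09%.

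Among the macrophages, 235 carried at least 1% of their UMIs in marker genes of another cell type and are called mixed. Erythroid genes reached that share in 174, genes of mature olfactory sensory neurons (mOSNs) in 70, of sustentacular cells in 7, of glands in 6 and of immature neurons in 1. Mixed cells made up 5.88, 6.25, 25.6 and 45.5% of the macrophages in the 4 WT mice and 19, 20, 100 and 65.9% in the 4 Upf3b-null mice, so that every macrophage of Upf3b-null replicate 3 was mixed. Doublets and free RNA in the droplets cannot be told apart in these counts. A barcode of 29 members was also a kept cell in another library, of 372 such barcodes among all kept cells, and no barcode belonged to 2 members. As a level of C1q in cells that should lack it, 1.98% to 22.9% of Omp neurons in each mouse had a C1q UMI, at a median of 2766.5 UMIs per neuron and 2822 per macrophage. At the limit of the rule, 31 members had exactly 5 C1q UMIs and 22 cells with 4 lay just outside, while the median member had 24 and 93 had 5 to 9. Csf1r was at 183 CPM in the sum of those with 5 C1q UMIs, 93.7 CPM in those with 4 and 624 CPM in those with 10 or more. In the same order, Adgre1 was at 80.1, 67.0 and 322 CPM. Lyz2, at 1626, 3951 and 7768 CPM, was higher just outside the limit than just inside. The neuronal gene Omp was at 1202, 1420 and 581 CPM. No member had 4% or more of its UMIs in S100a8 and S100a9, and 19 kept cells with at least 5 C1q UMIs were left out by that limit.

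Macrophage genes that the rule did not use were present in every mouse. Levels are given as CPM, the UMIs of a gene per 1000000 UMIs summed over the macrophages of 1 mouse, and since each UMI is 1 molecule read from its 3′ end, they are not divided by gene length. Csf1r, the receptor of the growth factor that macrophages need to survive, had 522, 494, 688 and 799 CPM in the WT mice and 399, 573, 411 and 682 CPM in the Upf3b-null mice. In Omp neurons it had a median of 3.11 CPM over the 8 mice. Adgre1, which encodes the macrophage antigen F4/80, ranged from 253 to 488 CPM in macrophages, with a median of 326 against 1.26 CPM in Omp neurons. The mannose receptor Mrc1 had a median of 275 CPM, the lysosomal glycoprotein Cd68 722, the Fc receptor Fcgr1 129 and the phagocytic receptor Mertk 97.8 CPM, and each of these 6 genes was higher in the macrophages than in all other kept cells of the same mouse in 8 of 8 mice. This contrast carries no test, since the cells were chosen.

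**Figure D1:**
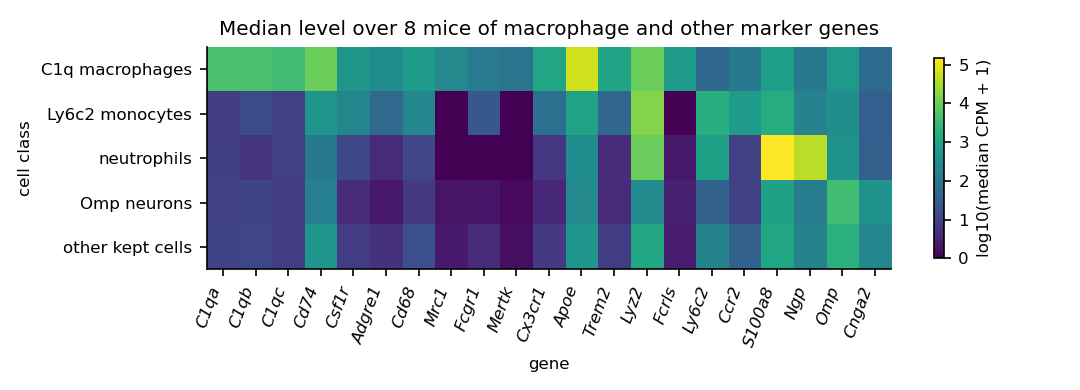
Median level over the 8 mice of 21 genes (columns) in the summed cells of 5 cell classes (rows), coloured by log10(CPM + 1). C1q genes, which chose the macrophages, and Mrc1, Mertk and Fcrls are high in the macrophage row and low elsewhere, whereas Csf1r and, less so, Adgre1 are also seen in monocytes, whose rule required Csf1r, and Lyz2 is high in monocytes and neutrophils.

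The C1q chains had levels of the same order within each mouse. C1qa had 7512, 6837, 2250.1 and 2122 CPM in the WT mice and 4113, 5759, 6244 and 1709 CPM in the Upf3b-null mice. C1qb had 8132, 6343, 2048 and 2338 CPM in the WT mice and 4866, 5388, 4882 and 1676.5 CPM in the Upf3b-null mice, and C1qc 5740, 4681, 2284 and 2159 CPM in the WT mice and 3789, 3967, 4394 and 2482 CPM in the Upf3b-null mice. The 3 libraries of set B were the lowest of each genotype for all 3 chains. Cd74, the invariant chain that guides MHC class II molecules and the remaining marker given for these cells, had 21650.5, 15021, 11615 and 5401 CPM in the WT mice and 15367, 4200.2, 8788 and 7082 CPM in the Upf3b-null mice, with the highest level in WT replicate 1 and the lowest in Upf3b-null replicate 2.

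Lipid, iron and lysosome genes were among the most abundant of the listed genes. Apoe, which encodes the lipid carrier apolipoprotein E, led them at a median of 63201 CPM, and ranged from 59666 to 88709 CPM in set A and from 22998 to 31680.3 CPM in set B. It had a median of 957 CPM in Ly6c2 monocytes of the same mice. Among lysosomal proteases, cathepsin D (Ctsd) had a median of 5433 CPM against 137 CPM in monocytes and cathepsin B (Ctsb) 2359 against 367 CPM, each higher in macrophages in 8 of 8 mice. Psap, the precursor of the saposins, was at 2063 CPM in macrophages and 2100.0 CPM in monocytes, with macrophages higher in 4 of 8 mice. The ferritin chains Ftl1 and Fth1, which store iron, had medians of 15433 and 9278 CPM, transferrin (Trf) 555 CPM and the biliverdin reductase Blvrb, which acts on the products of haem breakdown, 283 CPM. The tetraspanin Cd9 had a median of 489.5 CPM, the galectin Lgals3 372 CPM and the cholesterol transporter Abca1 268 CPM. Macrophages were above monocytes in 8 of 8 mice for Cd9 and Abca1, but in 0 of 8 for Lgals3, at a monocyte median of 2842 CPM. For Cd9 they were above Omp neurons, at a median of 803 CPM, in 1 of 8 mice. Lysozyme 2 (Lyz2) was at 10442 CPM but higher still in monocytes (15990 CPM), which exceeded the macrophages in 8 of 8 mice.

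Receptors for the uptake of particles and lipids were led by Trem2, with a range of 461 to 1901 CPM. Besides Mrc1, given above, they included the Fc receptor Fcgr3 (216 to 891 CPM), the lectin Clec4n (133 to 488 CPM) and the scavenger receptor stabilin-1 (Stab1, 188 to 435 CPM). Marco and Vsig4, scavenger and complement receptors of other tissue macrophages, had no UMI in any of the 8 mice, where 3 UMIs would be 4.24 CPM in the deepest sum and 77.1 CPM in the shallowest. Among genes of tissue-resident macrophages, the chemokine Pf4 had 1093, 539, 253 and 494 CPM in the WT mice and 429, 615, 283 and 191 CPM in the Upf3b-null mice. Gas6, a bridge between dying cells and phagocytes, ranged from 81 to 154 CPM and F13a1 from 0 to 67.9 CPM. Lyve1, a marker of macrophages along vessels, had UMIs in 1 mouse and the apoptotic-cell receptor Timd4 in 2. Of genes first known from microglia, the macrophages of the brain, Fcrls had 1034, 842, 570.1 and 589 CPM in the WT mice and 597, 955, 1336 and 366 CPM in the Upf3b-null mice. The receptor gene Gpr34 ranged from 148 to 463 CPM, the ADP receptor P2ry12 from 118 to 411 CPM and Tmem119 from 92.5 to 257 CPM. All 4 were above monocytes, and above all other kept cells, in 8 of 8 mice, with a monocyte median of 0 to 1.48 CPM. Sall1, a transcription factor of microglia, had a median of 0 CPM, with UMIs in 2 mice. Cx3cr1, the fractalkine receptor, had 404, 651, 1579 and 1623 CPM in the WT mice and 369, 626, 1799 and 1896 CPM in the Upf3b-null mice. It was higher in Upf3b-null replicate 3 and the 3 libraries of set B than in the other 4 mice.

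Complement receptors were sparser than C1q. C3ar1 (anaphylatoxin receptor) ranged from 130.2 to 254 CPM, the C5a receptor C5ar1 from 0 to 98.5 CPM and the integrin Itgax, a part of complement receptor 4, from 0 to 89.8 CPM. Among cytokines and chemokines, Ccl12 had the widest span, with 443, 1897, 199 and 302 CPM in the WT mice and 696, 1039, 822 and 131 CPM in the Upf3b-null mice. Cxcl16 ranged from 318 to 718 CPM, Ccl4 from 179.9 to 909 CPM and Ccl3 from 111 to 685 CPM, and all 4 were above monocytes in 8 of 8 mice. Other members of the list ran the other way. Ccl9, Ccl6 and Tgfb1 had medians of 85.5, 98 and 186 CPM against 495, 661 and 195 CPM in monocytes, with macrophages higher in 0, 1 and 1 of 8 mice. Il1b, which encodes the inflammatory cytokine interleukin-1 beta, ranged from 148 to 449 CPM and Il1a from 13.5 to 106 CPM, both above monocytes in 8 of 8 mice, and Il1b above neutrophils in 5 of 8. Il6, Il10 and Cxcl1 were at a median of 0 CPM. Interferon-stimulated genes were led by Bst2 (244 to 1132 CPM), Ly6e (229 to 415 CPM), Ifitm3 (103 to 552 CPM) and Ifi27l2a (155 to 303 CPM), the last 3 of them lower than in monocytes in 8 of 8 mice. Of the proliferation genes, the replication clamp Pcna ranged from 0 to 179.9 CPM and the helicase subunit Mcm6 from 0 to 154 CPM. Mki67 had a median of 20 CPM and Top2a 26.7 CPM, against 201 and 391 CPM in monocytes. Immediate early genes, which respond to cell stress and to dissociation, were led by Fos (597 to 1899 CPM), Junb (418 to 1927 CPM), Dusp1 (206 to 752 CPM) and Jun (269.9 to 664 CPM).

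MHC class II transcripts were unevenly spread over the macrophages of each mouse. No UMI of Cd74, H2-Aa, H2-Ab1 or H2-Eb1 was found in 228 of the 660 cells, whereas 222 had at least 1% of their UMIs in these 4 genes and held 96.6% of all Cd74 UMIs (71.5% in Upf3b-null replicate 2 and at least 94.6% in each other mouse). The value of 1% was chosen after the values were seen, and 56 cells lay between 0.5% and 2%. Cells at 1% or more, called MHC II-high here, made up 47.1, 40.6, 37.2 and 28.3% of the macrophages in the WT mice and 34.1, 13.3, 25 and 34.8% in the Upf3b-null mice. The genotypes overlap, and the lowest value rests on 4 of 30 cells in Upf3b-null replicate 2 and the next on 3 of 12 in replicate 3. The median C1q count was 26.5 UMIs in MHC II-high and 24 in the other cells, at 2912.5 and 2753.5 UMIs per cell.

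Of the other 6 genes of the MHC class II list, which did not define the split, 5 were higher in MHC II-high cells in at least 7 of 8 mice. This was so for 8.06% of 2691 genes abundant enough for the genotype test. H2-DMa, which loads peptides, had a median over the 8 mice of 637 against 174 CPM in the other cells and was higher in MHC II-high cells in 8 of 8 mice, and Ciita, the master regulator of the pathway, had 29.2 against 0 CPM and was higher in 7. The costimulatory ligand Cd86 was the exception, at 83 against 121 CPM and lower in 6 of 8 mice. The chemokine receptor Ccr2, used by cells derived from circulating monocytes, was at 218 against 6.54 CPM and higher in 7 of 8 mice, and the lectin Mgl2 at 87 against 0 CPM and higher in 7. Upf3b-null replicate 3, with 3 MHC II-high cells, had neither Ccr2 nor Mgl2. Of the dendritic cell list, Flt3 and Cd209a had medians of 0 CPM in both groups, and Siglech, its most abundant gene, was at 64.9 against 23.1 CPM and higher in 6 of 8 mice. The integrin Itgax, which dendritic cells also carry, was at 99.5 against 6.63 CPM and higher in 7 of 8 mice. The B cell gene Cd79a had 8.97 against 0 CPM. Over single MHC II-high cells the median share of the dendritic cell list and of the B lineage list was 0%.

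Lysosome, iron and phagocytosis genes ran the other way. Ctsd was at 1524 against 8095 CPM in MHC II-high against the other cells and lower in 8 of 8 mice, Ctsb at 1070.3 against 3021 CPM (8 of 8) and Trem2 at 485 against 1201 CPM (8 of 8). The iron exporter ferroportin (Slc40a1) was at 11.9 against 304 CPM (8 of 8), Fcrls at 178 against 1058 CPM (8 of 8), P2ry12 at 47.4 against 251 CPM (8 of 8) and Mrc1 at 108 against 338 CPM (8 of 8). The ferritin chains parted, since Ftl1 was lower in MHC II-high cells in 8 of 8 mice and Fth1 higher in 7. Csf1r was lower in 7 of 8 mice at 477 against 601 CPM. By list, counting members with a median above 0 CPM in either group, 11 of 14 lysosome genes, 9 of 12 phagocytic and scavenger receptors, 8 of 12 iron genes, 7 of 14 macrophage identity genes, 6 of 16 immediate early genes and 5 of 8 microglia-associated genes were lower in MHC II-high cells in at least 7 mice, and of these lists only Fth1 and Fcer1g were higher in at least 7. Of the identity genes, Lyz2, which encodes lysozyme, was at 5265 against 12373.5 CPM and the lysosomal glycoprotein gene Cd68 at 389.7 against 838 CPM, both lower in MHC II-high cells in 8 of 8 mice. Over all genes so counted, 911 of 10870 (8.38%) were lower in at least 7 mice and 2.42% higher, and among the 2691 genes abundant enough for the genotype test 547 (20.3%) were lower. With the mixed cells left out, which removes Upf3b-null replicate 3, Ctsd, Ctsb, Trem2, Fcrls, P2ry12, Slc40a1 and Mrc1 were lower and Ccr2 and Mgl2 higher in 7 of 7 mice. 

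**Figure D2:**
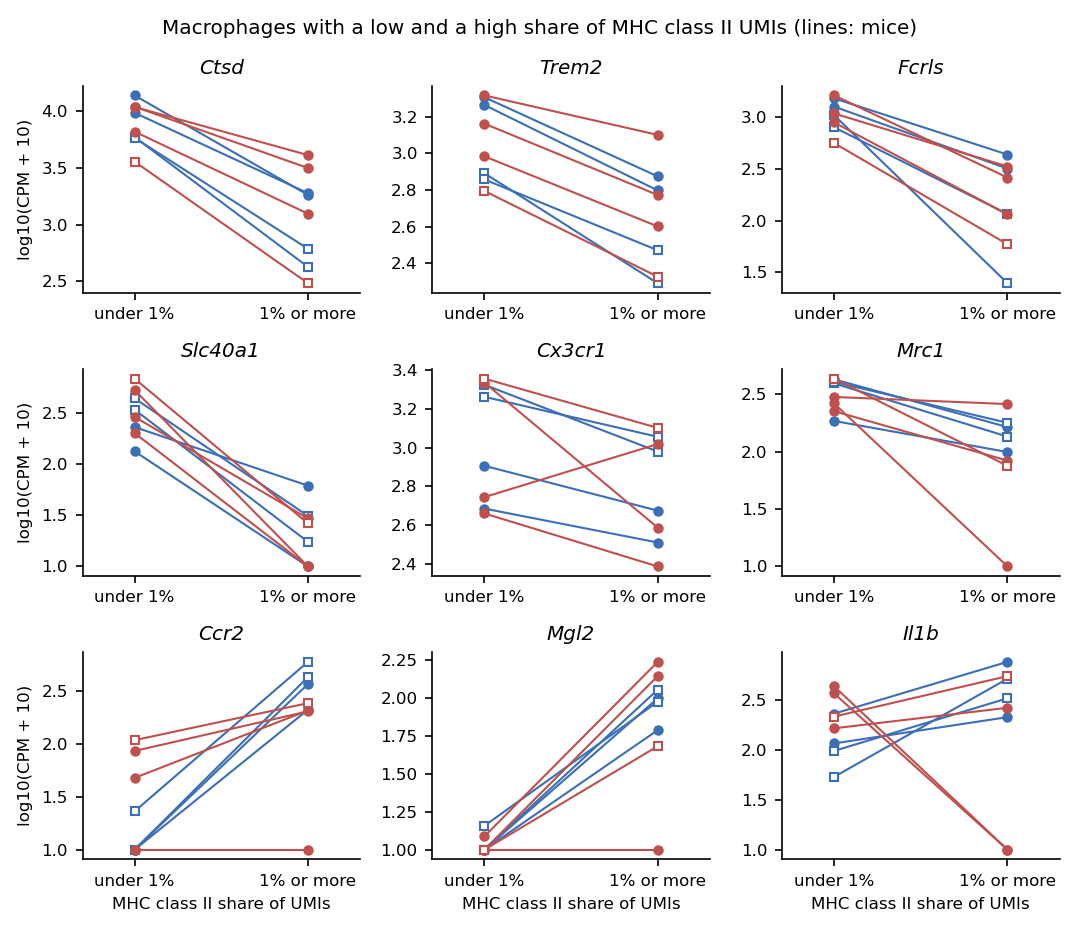
Level of 9 genes, as log10(CPM + 10), in macrophages with under 1% and with 1% or more of their UMIs in Cd74, H2-Aa, H2-Ab1 and H2-Eb1. Each line is 1 mouse, WT in blue and Upf3b-null in red, with filled circles for library set A and open squares for set B. Lines fall in all 8 mice for Ctsd, Trem2, Fcrls, Slc40a1 and Mrc1 and rise in 7 for Ccr2 and Mgl2.

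Clustering the macrophages without the genes of the rule gave 9 clusters, and in 7 of them 1 library set gave at least 86.7% of the cells. Cluster 0 (146 cells, 135 from set B and 81 mixed) was led by Vcam1, Slc40a1, Mertk and Maf, with Slc40a1 at 725 against 135 CPM in the other members, and had the lowest Cd74 of the 9 clusters (329.5 CPM). Cluster 3 (89 cells, 87 from set A) was led by Syngr1, Apoc1, Cd68 and Trem2, with Trem2 at 1798 against 577 CPM. Cluster 2 (90 cells, 78 from set A and 12 from set B) was led by Crip1, Ccl9, Lgals3 and S100a4, with Lgals3 at 1673 against 156 CPM, and had the highest Cd74 (40533 CPM). Cluster 4 (65 cells, all from set A) was led by the lipopolysaccharide receptor Cd14 (2431 against 273 CPM) and by Ccl12, Ccl3 and Dusp1. Cluster 5 (65 cells, 58 from Upf3b-null replicate 4 and 34 mixed) was led by Il2ra and Klra2 together with the secretory genes Lcn3 and Obp2a. Clusters 2, 3 and 4 held 1, 3 and 2 mixed cells. Leading genes define the clusters and carry no test.

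The remaining 4 clusters were led by genes of other OE cells. Cluster 1 (124 cells, 60 from WT replicate 3 and 68 mixed) was led by Bpifa1, Cyp2g1, Rgs5 and Cyp2a5, with Bpifa1, a secreted airway protein, at 4896 against 413 CPM. Cluster 6 (62 cells, 45 from Upf3b-null replicate 1 and 42 mixed) was led by Dlg2, Nrn1l, Cystm1 and Acbd7, and its neuronal calcium sensor S100a5 was at 8574 against 876 CPM. Cluster 7 (11 cells) was led by Coch, Ascl3, Gm933 and Pam, with Foxi1 and Cftr of ionocytes among its next genes, and cluster 8 (8 cells) by the keratins Krt14 and Krt17 with F3 and Fxyd3. Their median C1q counts were 14, 16.5, 10 and 14 UMIs. Clusters 2, 3 and 4, mostly of set A, had 38, 58 and 52, and clusters 0 and 5, mostly of set B, had 20 and 18. Set B gave 112 cells of cluster 1, and set A gave 57 of cluster 6. The cells of clusters 1, 6, 7 and 8 carry C1q and the genes of another cell together, and were kept because the rule keeps them. Since set and cluster overlap, cluster sizes were not compared between genotypes.

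**Figure D3:**
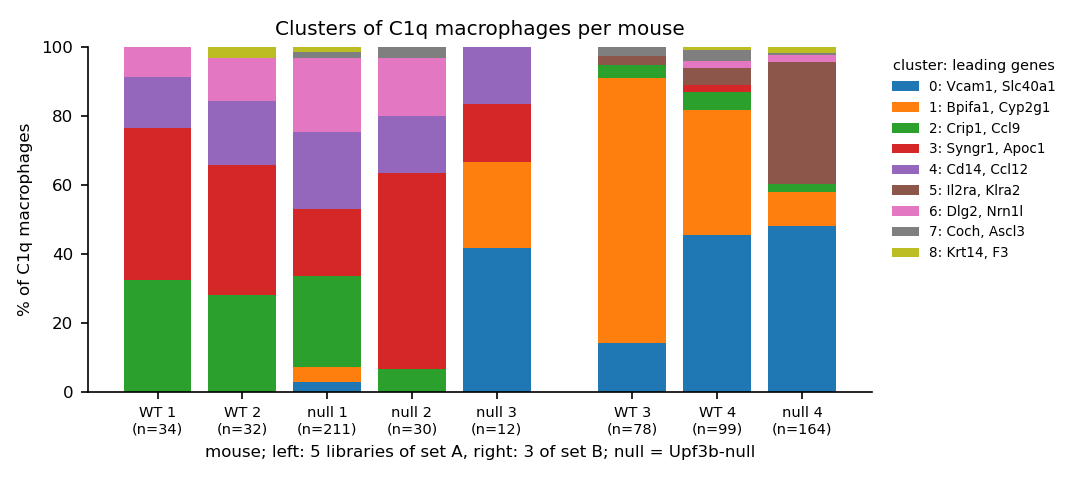
Share in percent of the macrophages of each mouse that fell in each of 9 clusters, named by their first leading genes, with the 5 libraries of set A on the left, the 3 of set B on the right and the number of macrophages under each bar. Clusters 2, 3, 4 and 6 fill most of the bars of set A except Upf3b-null replicate 3, and clusters 0, 1 and 5 those of set B.

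The share of macrophages among kept cells did not differ between genotypes beyond the spread between mice. Macrophages made up 1.86, 2.22, 2.79 and 3.21% of kept cells in the 4 WT mice and 2.95, 2.25, 0.702 and 2.81% in the 4 Upf3b-null mice. The groups overlap, and Upf3b-null replicate 3 is the lowest (12 of 1710 cells, 95% Wilson interval 0.402% to 1.22%, which covers counting error only). The mean was 2.52% ± 0.603 in WT and 2.18% ± 1.03 in Upf3b-null mice (SD, n = 4 each), a difference of -0.343 percentage points (two-sided exact permutation test, p = 0.686, adjusted p = 0.857 over both shares). Neutrophils, which made up 0.609% to 24.2% of kept cells in each mouse, can set this share, so it was also taken outside them. It was then 1.96, 2.44, 2.81 and 3.49% in WT and 3.2, 2.42, 0.806 and 3.72% in Upf3b-null mice, with means of 2.67% ± 0.647 and 2.54% ± 1.27 (SD, n = 4 each; exact permutation p = 0.857, adjusted p = 0.857). With 4 mice against 4, the smallest p the test allows is 0.0286. Without Upf3b-null replicate 3 the differences were 0.149 and 0.439 percentage points, in the opposite direction, and in the 5 libraries of set A alone -0.0697 and -0.0535.

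**Figure D4:**
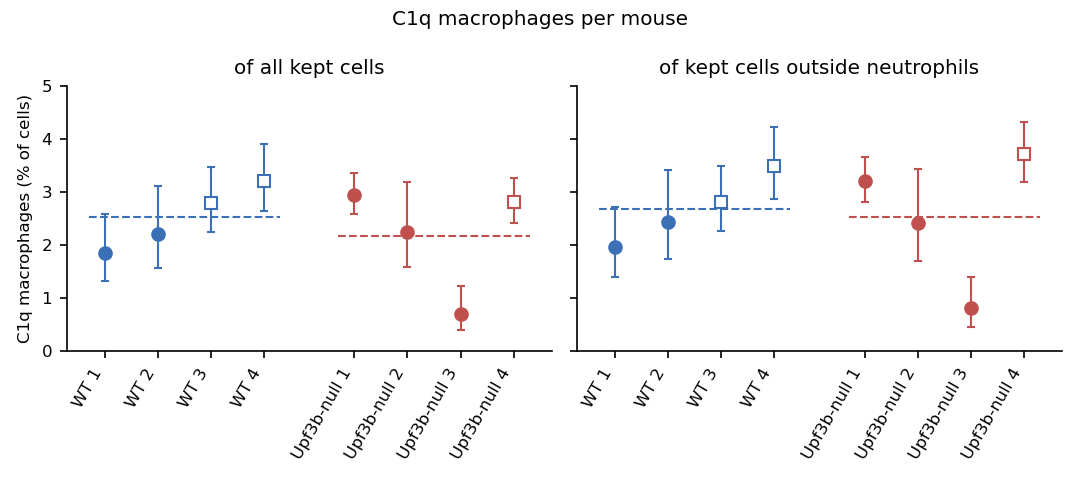
C1q macrophages in percent of all kept cells (left) and of kept cells outside neutrophils (right) in each mouse, with 95% Wilson intervals and dashed lines for the mean of each genotype. Filled circles are library set A and open squares set B. WT mice lie between 1.86% and 3.21% of all kept cells, and 3 of 4 Upf3b-null mice lie within that range.

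Upf3b itself, on chromosome X of GRCm38 from 37091678 to 37110322, followed the genotype labels in the macrophages. It had 29.5, 56.1, 67.5 and 61.7 CPM in the WT mice and 1.41, 0, 0 and 2.01 CPM in the Upf3b-null mice, and every Upf3b-null mouse lay below every WT mouse. With 50 UMIs in all it was too sparse for the filter on low counts. Without that filter, edgeR's quasi-likelihood test put the log2 fold change at -4.79 with a standard error of 0.85 and an adjusted p of 0.000298, and DESeq2 put it at -4.75 with an adjusted p of 0.0433.

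No gene passed the main test of the genotype in macrophages. UMIs were summed over the macrophages of each mouse and compared between 4 WT and 4 Upf3b-null sums by edgeR's quasi-likelihood test with Benjamini-Hochberg adjustment, and 0 of 2697 genes tested (0.0%) had an adjusted p under 0.05, with 17 genes under an unadjusted p of 0.05. DESeq2 called 1 gene of 15760 (0.00635%), which was Upf3b. Without the filter on low counts edgeR called 3 of 15775 (0.019%), namely Upf3b, AA467197 (lower) and the odorant receptor gene Olfr794 (higher). Of the genes tested, 1297 had a log2 fold change above 0 and the median was -0.01.

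The WT and Upf3b-null mice did not overlap for 12 genes that were higher (0.445% of those tested) and 10 that were lower (0.371%) in the Upf3b-null mice. None passed the test (adjusted p = 1.00 for each), so values are given for the 6 with the smallest unadjusted p in each direction. Ppp1r15a, which encodes the stress-induced phosphatase subunit GADD34, had 39.4, 11.2, 47.2 and 58.6 CPM in the WT mice and 83.5, 127, 128 and 68.4 CPM in the Upf3b-null mice. Its means were 39.1 ± 20.2 CPM in the WT group and 102 ± 30.6 CPM in the Upf3b-null group (SD, n = 4), with a log2 fold change 1.09, standard error 0.42. Mid1ip1, a regulator of lipid synthesis, had 29.5, 22.5, 47.2 and 43.2 CPM in the WT mice and 63.7, 84.9, 179.9 and 58.4 CPM in the Upf3b-null mice (log2 fold change 1.02, standard error 0.44). Both genes rest on few UMIs, 148 and 122 over the 8 mice. In Omp neurons their medians were 107 and 138 CPM, against 63.5 and 52.8 CPM in macrophages, which were the higher in 1 of 8 mice for each. Ly6c2, a monocyte surface gene, had 0, 11.2, 13.5 and 43.2 CPM in the WT mice and 65.1, 95.5, 77.1 and 60.4 CPM in the Upf3b-null mice (log2 fold change 1.72, standard error 0.58). Its level in monocytes of these mice was 1427 to 2767 CPM, and in Omp neurons, which should lack it, its median was 41.7 CPM against 51.8 CPM in macrophages, which were the higher in 4 of 8 mice. The part of RNA from other cells in the levels of Ppp1r15a, Mid1ip1 and Ly6c2 was not tested. Ube2f, a NEDD8-conjugating enzyme (log2 fold change 0.90, standard error 0.39), Vmp1, an autophagy protein of the endoplasmic reticulum (log2 fold change 0.77, standard error 0.36), and Arpp19, a phosphatase inhibitor (log2 fold change 0.47, standard error 0.27), were the remaining genes on this side. Macrophages were above Omp neurons in 3 of 8 mice for Ube2f, 7 for Vmp1 and 8 for Arpp19.

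On the lower side, the transcription factor gene Lmo2 had 167, 213, 125 and 169.7 CPM in the WT mice and 83.5, 117, 103 and 113 CPM in the Upf3b-null mice (log2 fold change -0.69, standard error 0.32). Wapl, which releases cohesin from DNA, had 78.8, 78.6, 108 and 111 CPM in the WT mice and 55.2, 10.6, 0 and 70.4 CPM in the Upf3b-null mice (log2 fold change -0.99, standard error 0.47). Fam134b, a receptor for autophagy of the endoplasmic reticulum, had 118, 101, 125 and 102 CPM in the WT mice and 58, 63.6, 51.4 and 90.6 CPM in the Upf3b-null mice (log2 fold change -0.67, standard error 0.35). The Upf3b-null mice were the lowest 4 of 8 for each of them. Pid1 (log2 fold change -0.66, standard error 0.35), the thromboxane synthase Tbxas1 (log2 fold change -0.70, standard error 0.37) and the chaperone Dnaja2 (log2 fold change -0.65, standard error 0.35) completed this side. Macrophages were above Omp neurons in 8 of 8 mice for Lmo2, Pid1 and Tbxas1, 5 for Wapl and 2 for Dnaja2. For Fam134b it was 0 of 8, at medians of 95.8 against 178 CPM. The part of neuronal RNA in these levels was not tested. With the library set as a term of the fit, these 12 genes kept their direction and none passed. They were chosen for groups that do not overlap, so a kept direction says little.

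**Figure D5:**
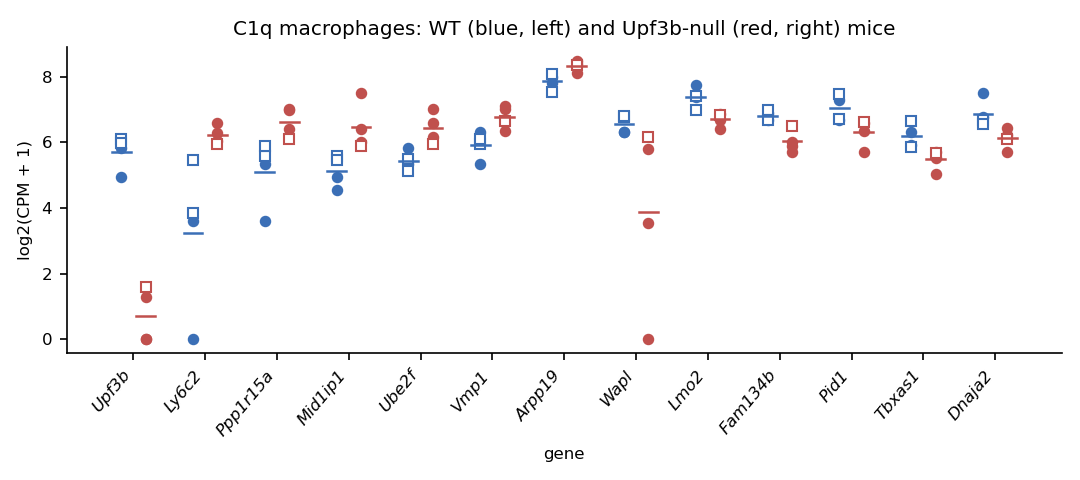
Level, as log2(CPM + 1), of Upf3b and of the 12 genes with the smallest unadjusted p among those whose genotypes do not overlap, in the macrophages of each WT (blue, left) and Upf3b-null (red, right) mouse, with lines for the mean of the log2 values. Filled circles are library set A and open squares set B. The groups of the 12 genes are apart because they were chosen for it, and Upf3b shows the widest gap.

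No member of any pathway list passed the main test. Upf3b, a member of the NMD list, was too sparse for that test and was called by DESeq2 and without the filter on low counts, as given above. Most lists are given by how many members were abundant enough to be tested, how many of those had a log2 fold change above and below 0 in Upf3b-null against WT macrophages, and their median, first without and then with the library set as a term. Over all genes tested these medians were -0.01 and -0.00438. The medians of the lysosome, macrophage identity, microglia-associated and cell cycle lists lay above 0 without the set term and below 0 with it. For the MHC class II pathway, 8 of 10 members were tested (0 above and 8 below 0, median -0.46, -0.51 with the set term). H2-Ab1, the beta chain of I-A, had 5592, 4592, 3748 and 1863 CPM in the WT mice and 3794, 933, 1979 and 2164 CPM in the Upf3b-null mice (log2 fold change -0.85, standard error 0.40). H2-Aa, the alpha chain, had 4499, 4255, 3694 and 1709 CPM in the WT mice and 3133, 997, 2029.9 and 2339 CPM in the Upf3b-null mice (log2 fold change -0.74, standard error 0.36). The tests gave unadjusted p of 0.0512 and 0.0562 and adjusted p of 1.00 by edgeR's quasi-likelihood test. The groups overlap, and WT replicate 4 and Upf3b-null replicate 2 were the lowest of their groups for both genes. Cd74 had a log2 fold change -0.63, standard error 0.42, and the cathepsin Ctss, which trims the invariant chain, a log2 fold change -0.04, standard error 0.32. For MHC class I, 7 of 10 members were tested (1 above and 6 below 0, median -0.26, -0.33 with the set term), and its most abundant member, beta-2 microglobulin (B2m), had a log2 fold change -0.26, standard error 0.30. For lysosome genes, 14 of 14 members were tested (9 above and 5 below 0, median 0.07, -0.11 with the set term), with Ctsd at 5591 ± 2259 CPM in the WT group and 6501 ± 3598 CPM in the Upf3b-null group (SD, n = 4). For iron genes, 9 of 12 members were tested (6 above and 3 below 0, median 0.35, 0.38 with the set term). For lipid genes, 8 of 12 members were tested (1 above and 7 below 0, median -0.11, -0.15 with the set term), with Apoe at 57102 ± 32551 CPM in the WT group and 57354 ± 24408 CPM in the Upf3b-null group (SD, n = 4). For macrophage identity genes, 14 of 14 members were tested (8 above and 6 below 0, median 0.13, -0.07 with the set term), with Tyrobp, the adaptor of TREM2, at 3441 ± 1348 CPM in the WT group and 3378 ± 1071 CPM in the Upf3b-null group (SD, n = 4).

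For immediate early genes, 13 of 17 members were tested (11 above and 2 below 0, median 0.43, 0.35 with the set term). Junb, an AP-1 subunit, had 866, 1179, 418 and 657 CPM in the WT mice and 1395, 1761, 1927 and 859 CPM in the Upf3b-null mice (log2 fold change 0.91, standard error 0.34), and Upf3b-null replicate 4 lay within the WT range. Fos had a log2 fold change 0.38, standard error 0.30. For phagocytic and scavenger receptors, 11 of 15 members were tested (5 above and 6 below 0, median -0.01, -0.01 with the set term). For cytokines and chemokines, 10 of 21 members were tested (4 above and 6 below 0, median -0.13, -0.25 with the set term). For interferon-stimulated genes, 6 of 15 members were tested (3 above and 3 below 0, median 0.01, 0.02 with the set term). For microglia-associated genes, 6 of 10 members were tested (5 above and 1 below 0, median 0.13, -0.01 with the set term), and for genes of tissue-resident macrophages 3 of 10 members were tested (1 above and 2 below 0, median -0.42, -0.09 with the set term). Complement receptors and regulators (2 tested, median 0.10, 0.13 with the set term) and cell cycle genes (3 tested, median 0.05, -0.06 with the set term) had few testable members and none that passed.

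Genes of the NMD pathway were mostly too sparse to test in so few cells. Of 16 NMD factors and exon junction proteins, 2 were tested (1 above and 1 below 0, median -0.12, -0.15 with the set term). Rbm8a, which encodes the junction protein Y14, was at 122 ± 15.3 CPM in the WT group and 135 ± 19.7 CPM in the Upf3b-null group (SD, n = 4), and its partner Magoh at 57.4 ± 20.9 CPM in the WT group and 41.7 ± 15.4 CPM in the Upf3b-null group (SD, n = 4). Too sparse to test, the kinase Smg1 ranged from 11.2 to 94.6 CPM and Eif4a3 from 31.8 to 77.1 CPM. The paralogue Upf3a had 19.7, 11.2, 10.1 and 21.6 CPM in the WT mice and 17, 10.6, 0 and 38.2 CPM in the Upf3b-null mice, with overlapping groups. A list of 21 genes with transcripts known as NMD substrates held snoRNA host, stress, splicing factor and ribosomal protein genes. Of these, 16 were in the matrices and 9 were tested, 5 above and 4 below 0 on the log2 scale (median 0.01, 0.12 with the set term), and none passed. UMIs were counted per gene, so spliced forms that NMD degrades were not told apart from the others. The members of this list with the highest levels were ribosomal protein and splicing factor genes. They were Rps9 (log2 fold change -0.21, standard error 0.23), Rpl12 (log2 fold change -0.33, standard error 0.28), Srsf3 (log2 fold change -0.27, standard error 0.31) and Srsf2 (log2 fold change -0.19, standard error 0.29). The stress factor Atf4 had a log2 fold change of 0.34 and the snoRNA host Snhg6 of 0.54.

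A fit with the library set as a term, chosen after the sets were seen, called 2 of 2697 genes (0.0742%), both higher in Upf3b-null macrophages. Reg3g, an antibacterial lectin of epithelia, had 19.7, 22.5, 57.3 and 58.6 CPM in the WT mice and 108, 21.2, 25.7 and 549 CPM in the Upf3b-null mice. The fitted difference was 3.02 on the log2 scale with a standard error of 0.41 (adjusted p = 0.00162 by edgeR's quasi-likelihood test), and the high values are those of Upf3b-null replicates 4 and 1. Ltf, which encodes the neutrophil granule protein lactoferrin, had 9.85, 0, 81 and 74 CPM in the WT mice and 46.7, 0, 51.4 and 324 CPM in the Upf3b-null mice (log2 fold change 2.21, standard error 0.41, adjusted p = 0.0322 by the same test). Omp neurons, a cell type that should lack both, had the higher level of Reg3g in 6 and of Ltf in 7 of 8 mice. The neurons had 39.8, 12.5, 274 and 132 CPM in the WT mice and 149.7, 46.3, 27.2 and 509 CPM in the Upf3b-null mice for Reg3g. For Ltf they had 10.9, 30.2, 649.7 and 146 CPM in the WT mice and 43.3, 4.03, 115 and 390.3 CPM in the Upf3b-null mice. In neutrophils Ltf ranged from 1999 to 6838 CPM. With the set as a term DESeq2 called Upf3b (lower) and Malat1 (higher, log2 fold change 0.76), and in set A alone edgeR called 1 of 1381 genes (0.0724%), the neuropeptide gene Cartpt (higher, log2 fold change 4.34). Macrophages were above Omp neurons in 0 of 8 mice for Malat1 and for Cartpt. The medians were 30785.5 against 44342 CPM for Malat1 and 99.1 against 869 CPM for Cartpt. The part of neuronal RNA in these values was not tested.

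Transcripts of other cells moved between mice in the macrophage sums. The 9 erythroid genes summed to 266, 33.7, 4527 and 27056 CPM over the macrophages of the WT mice and 5303, 5081, 18937 and 15976 CPM over those of the Upf3b-null mice. In the neurons of the same mice the sum was 3810.2, 162, 25791.5 and 26359 CPM for WT and 3717, 741, 210872 and 21065 CPM for Upf3b-null mice, led in the macrophages by Hbb-bs. The 11 neutrophil granule and effector genes summed to 88.6, 326, 661 and 749.6 CPM over the macrophages of the WT mice and 423, 74.2, 2672 and 2158 CPM over those of the Upf3b-null mice, highest in Upf3b-null replicates 3 and 4, and the same list was highest in those 2 mice in Omp neurons (2531 and 2182 CPM). Its most abundant gene was Camp, and all 11 had UMIs in some mouse. All 5 tested genes of this list and all 4 tested erythroid genes had log2 fold changes above 0, with medians of 1.34 and 0.62, and none passed. With the library set as a term these medians were 1.87 and 3.12. The 10 mOSN genes summed to 2412, 3166, 6241 and 4799.9 CPM over the macrophages of the WT mice and 5613, 4953, 3751 and 3345 CPM over those of the Upf3b-null mice, led by S100a5. Genes of T and NK cells summed to at most 29.7 CPM, with 1 of 7 at 0 in all mice, dendritic cell genes to at most 81 CPM, endothelial genes to at most 26.2 CPM and olfactory ensheathing glia genes to at most 54.3 CPM. The highest sums were 347 CPM for B lineage genes (led by Ebf1), 308 CPM for stromal, 129 CPM for osteoclast, 62.3 CPM for myeloid progenitor, 65.1 CPM for mast cell and basophil and 236 CPM for horizontal basal cell genes. Immature neuron genes reached 1339 CPM, sustentacular genes 1922 CPM and gland genes 3727 CPM. The 8 monocyte genes summed to 158, 326, 358 and 503 CPM over the macrophages of the WT mice and 426, 626, 77.1 and 557 CPM over those of the Upf3b-null mice, against a median of 6855 CPM in monocytes. The part of these transcripts in the genotype values was not tested beyond the fit without mixed cells, which has no macrophage left from Upf3b-null replicate 3 and in which 0 of 2838 genes passed, with 29 under an unadjusted p of 0.05 by edgeR.

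Whether the genotype difference in macrophages differed from that in Ly6c2 monocytes of the same mice was tested as an interaction. Monocytes were the 302 kept cells outside the macrophages with Ly6c2 and Csf1r but little S100a8, S100a9, Mpo and Elane, and WT replicate 3 with 5 of them was left out. None of 2160 genes passed (0.0%) by edgeR's quasi-likelihood test, with 68 under an unadjusted p of 0.05, and DESeq2 called none of 16208, with 65 under that p. In set A alone edgeR called 2 of 1965 genes (0.102%), S100a5, a neuronal gene, and Ly6c2, which the monocyte rule used. The smallest unadjusted p was that of Rgs1, a regulator of G protein signalling named after its values were seen, with a difference between the log2 fold changes of 4.28 (standard error 1.12, unadjusted p = 0.00143, adjusted p = 1 by edgeR's quasi-likelihood test). In macrophages Rgs1 had 98.5, 213, 159 and 259 CPM in the WT mice and 202, 488, 1105 and 362 CPM in the Upf3b-null mice. In monocytes it had 24.7, 11.1, 0 and 8.99 CPM in the WT mice and 0, 0, 0 and 2.1 CPM in the Upf3b-null mice. The count of interaction genes depended on the fit. With the replicate number as a block, edgeR called 5 of 2160 genes (0.231%), namely H2-Ab1 (difference 2.08), H2-Aa (2.04), H2-Eb1 (2.87), Ccl6 (1.90) and Ltf (2.68). For these 5 the log2 fold change was higher in macrophages than in monocytes. In the main genotype fit of the macrophages, H2-Ab1 and H2-Aa were below 0 on that scale, as given above. A positive difference for them is therefore not by itself a rise in macrophages. Without Upf3b-null replicate 3 edgeR called H2-Aa (2.13), and without WT replicate 4 S100a5 and Ly6c2.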

How the data were processed

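The authors deposited UMI counts per gene and barcode for 8 mice, made with Cell Ranger on mm10 per the labels (version 2.0 in the sample descriptions). For the bulk libraries they deposited read counts per Ensembl transcript (STAR 2.5.2b and featureCounts). Members and gene lists were chosen with earlier results of these data known, and the library sets, the MHC class II limit of 1%, and the genes named for clusters and for that limit after their values were seen. UMIs were summed per mouse and class, and tested in edgeR 4.0.16 (TMM, filterByExpr, quasi-likelihood, adjusted p under 0.05) with DESeq2 1.42.0 and limma 3.58.1 as alternatives. The interaction fit held each mouse as a block and needed 10 cells of each class per mouse. Monocytes had at least 2 UMIs of Ly6c2 and 1 of Csf1r, and under 3 of Mpo and Elane. Named were genes past the test, else the 6 on each side with the smallest p among those not overlapping, and up to 4 abundant members per list. Shares were compared by exact permutation (scipy 1.17.1, 70 arrangements). Clusters came from scanpy 1.11.5 (1500 variable genes, 20 components, 15 neighbours, Leiden resolution 0.5). No doublet caller was run. A few listed genes are not reported here. Scripts were tested on simulated data. Of 23010 bulk transcripts, 22646 were matched to genes. The counting is 3′ tagged, so levels are not divided by length. Wilson intervals cover counting error only.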

Additional observations from a re-analysis of the deposited data

Results flagged for a closer look

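Among the Upf3b-null mice, 1 of the 4 stood apart from the rest for 2 values, and in both cases it was replicate 4. The gap between that mouse and its nearest neighbour, as a share of the whole range of the group, was 0.837 for Reg3g (549 against 21.2 to 108 CPM) and 0.841 for Ltf (324 against 0 to 51.4 CPM), both past Dixon's 95% critical value for 4 samples. In all, 50 groups of 4 values were checked, and chance passes this limit in about 5% of groups.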

How the results depend on the processing

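The count of genes called between genotypes in macrophages was 0 with RLE size factors, limma voom with sample weights, C1q limits of 10 or 3 UMIs and mixed cells left out. It was 1 by DESeq2, 3 without the filter on low counts, 2 with the library set as a term of the edgeR fit, 2 with that term in DESeq2, 1 in set A alone, and 0 to 2 when each mouse was left out in turn (Upf3b and AA467197 without WT replicate 1, Upf3b without Upf3b-null replicate 2). Their causes were not tested. The 12 genes named for groups that did not overlap kept direction and stayed uncalled in 193 of 193 alternative values, with 7 of them not tested without WT replicate 3, without Upf3b-null replicate 4 or in set A alone, and 6 without WT replicate 4 or without Upf3b-null replicate 1. Since these genes were chosen for groups that do not overlap, that count says little about their stability. Their log2 fold changes moved by over 1.5 times without mixed cells for Mid1ip1 (to 0.56), Vmp1 (to 0.49) and Pid1 (to -0.41), with Ppp1r15a not tested there (nor Ly6c2 at a C1q limit of 10 UMIs), at a C1q limit of 3 UMIs for Ly6c2 (to 2.67) and Pid1 (to -0.42), by limma for Wapl (to -1.80), without WT replicate 2 for Dnaja2 (to -0.40) and in set A alone for Ppp1r15a (to 1.97). The interaction with monocytes gave 0 to 2 genes when a mouse was left out (S100a5 and Ly6c2, a gene of the monocyte rule, without WT replicate 4, and H2-Aa without Upf3b-null replicate 3) and 2 in set A alone (S100a5 and Ly6c2). Replicate numbers of WT and Upf3b-null mice do not pair them: same-numbered deviations correlated at r = 0.185, 0.173, -0.144 and 0.561, and not every mouse correlated best with its own number. With the replicate number as a block, 0 macrophage genes passed and 5 passed for the interaction (Ltf, Ccl6, H2-Ab1, H2-Aa and H2-Eb1), all 5 with a higher log2 fold change in macrophages than in monocytes. The exact tests of the shares within the block gave p = 0.75 and p = 0.875. The difference in share turned to 0.104 percentage points (outside neutrophils 0.256) with every deposited barcode, and ranged from -0.600 to 0.149 (outside neutrophils -0.531 to 0.439, above 0 without Upf3b-null replicate 3 and, at 0.134, without WT replicate 4) when a mouse was left out. Without mixed cells it was -0.627 (outside neutrophils -0.580), and at both other C1q limits it kept its direction. Depth limits the comparison most in Upf3b-null replicate 3, where 12 macrophages make 3 UMIs equal to 77.1 CPM.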

Other observations

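C1q transcripts were also counted in the bulk libraries of the study, each from a pool of 3 mice. The sorted libraries (4 per genotype) hold RNA of mOSNs sorted by a fluorescent reporter that Cre recombinase under Omp switches on. The ribosome-bound libraries (3 per genotype) hold RNA captured from OE lysates with a ribosomal protein that is tagged in cells with this Cre. Counts per transcript were scaled here to CPM, and medians are given with the range and no test. C1qa was at 15.3 CPM (7.78 to 21.4) in sorted WT and 53.3 CPM (18 to 116) in sorted Upf3b-null mOSNs, on 10 to 297 reads per library. C1qb was at 19.3 CPM (5.45 to 24.5) and 63 CPM (15.1 to 106), and C1qc at 11.8 CPM (6.22 to 17.9) and 36.1 CPM (8.62 to 65.3). The ranges of the genotypes overlap for each chain, and 2 of the 4 Upf3b-null libraries lay above every WT library by more than the whole WT range. In ribosome-bound RNA, C1qa was at 21.3 CPM (16.2 to 31) in WT and 22.2 CPM (16.7 to 112) in Upf3b-null libraries, C1qb at 13.1 CPM (11.3 to 13.6) and 10.7 CPM (8.92 to 12.2), and C1qc at 13.6 CPM (11.4 to 17) and 17.5 CPM (10.3 to 60.2). The highest C1qa and C1qc were those of Upf3b-null replicate 3, whose C1qb, at 8.92 CPM on 24 reads, was the lowest of the ribosome-bound libraries. The neuronal gene Omp had 3763 to 3992 reads in each of the 8 sorted libraries, whose totals ran from 1216784 to 3264827 reads, so its count did not follow the total, and CPM of other genes rest on totals that include such counts. The ribosome-bound CPM carry this limit too. There Omp had 4176 to 4231 reads in WT libraries, at totals of 5810873 to 7542665 reads. Upf3b-null libraries had 4244, 4211 and 2980, the last in replicate 3, at a total of 2691023 reads.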
